A study of Mus musculus with 4 samples.

Results

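The genotype by challenge difference was computed for every gene measured on 4 microarrays of bronchial epithelial cells from mouse lung. It is the antigen challenge effect in cells labelled Pla2g3-/- minus the challenge effect in Pla2g3+/+ cells, so it uses each of the 4 arrays once. A value of 0 says that challenge moved a gene by the same amount under both genotype labels. Genes were kept when 1 of their probes was well above background on all 4 arrays, which held for 19205 of 24373 genes with a name on the array and for 30063 of 39429 probes.

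The 4 groups were Pla2g3+/+ control, Pla2g3-/- control, Pla2g3+/+ antigen challenged and Pla2g3-/- antigen challenged, each hybridised to 1 array from total RNA pooled from 4 samples. The protocol given for all 4 groups is sensitisation with 10 µg ovalbumin (OVA) and 1.3 mg alum on days 0 and 14, then a 1% OVA aerosol for 30 min on days 26, 27 and 28, with lungs taken 3 h after the last challenge. The labels call the unchallenged groups control and do not say whether those mice were sensitised or breathed a sham aerosol. They also do not say which part of Pla2g3 is missing, in which cells, on what strain background, at what age, or whether the pooled samples were single mice. With 1 array a group there is no residual error, so no p-value is given for any difference.

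Pla2g3 encodes a secreted phospholipase A2, an enzyme that cuts membrane phospholipids into free fatty acids and lysophospholipids, the starting material of prostaglandins, leukotrienes and lysophosphatidic acid. In the airway, inhaled antigen in a sensitised animal draws eosinophils, T cells and, in the first hours, neutrophils, and the epithelium answers with chemokines, mucus proteins and antimicrobial proteins. Chemokines of the CXCR2 family call neutrophils, those of the CXCR3 family call activated T cells, and CC chemokines call monocytes, eosinophils and type 2 T cells.

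Levels below are log2 intensities relative to the 75th percentile of their array, and each is given in the order Pla2g3+/+ control, labelled Pla2g3-/- control, Pla2g3+/+ challenged, labelled Pla2g3-/- challenged. The difference is on the log2 scale too, so 1 is a 2-fold and 2 a 4-fold larger response under the Pla2g3-/- label. The error given with a difference is the scanner's own error of the spots, carried through the 4 arrays. It had a median of 0.29 and did not include the spread between animals, pools, labelling reactions or hybridisations. Its median was 0.2885 both for genes with a mean level of 0 to 2 and for those above 2. For bright genes it is thus nearly a constant and does not measure the spread of the single gene. For 330 probes printed 10 times on each array, the SD of the difference between spots had a median of 0.13 and a 95th percentile of 0.55. Among those below their 25th percentile of level, these values were 0.32 and 0.77. Of 10 spike-in RNAs, which were added at known amounts and carry no genotype, 9 were well above background on all arrays, with differences from -0.32 to 0.14 and a median of -0.24.

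The targeted gene goes against the labels. Pla2g3 lay at -3.06, 0.14, -2.83 and 1.06 by its brighter probe (chromosome 11, 3394109 to 3394168, mm9), so both arrays labelled Pla2g3-/- were higher than both Pla2g3+/+ arrays. A second probe (3393127 to 3393186) lay at -5.50, -3.38, -7.12 and -2.56. The genotype by challenge difference of Pla2g3 was 0.71 ± 0.29 by the first probe and 2.43 ± 0.38 by the second. Whether either probe lies in the deleted part is not known, and a probe outside it checks nothing. The arrays are therefore called "labelled Pla2g3-/-", and each direction below rests on that label.

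The cells had the markers of airway epithelium on all 4 arrays. The 12 pan-epithelial genes had median levels of 3.28, 3.05, 3.46 and 3.25, and the 9 club cell genes, among them the secretoglobin Scgb1a1, had 7.28, 7.29, 7.37 and 7.12. None of the 12 pan-epithelial, 9 club cell, 5 basal cell or 14 ciliated cell genes differed 2-fold, and the list medians of the difference were -0.02, -0.27, -0.12 and 0.16. Scgb1a1 itself had a difference of -0.26 ± 0.09, and Foxj1, the master regulator of motile cilia, had 0.30 ± 0.29. Markers of leukocytes, developing T cells, endothelium, thyroid and parathyroid were above background as well, and their values are given below. In a bulk sample, fewer cells of a type and less RNA per cell cannot be told apart.

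Over the 19205 genes the difference had a median of -0.03 and a median size of 0.20, and the central 95% of genes lay between -1.0 and 1.06. A total of 530 genes (2.76%) had a difference of at least 1, and 477 (2.48%) had one of -1 or lower. At 4-fold the counts were 99 and 110. The values nearest the threshold were 1.0018 inside and 0.9997 outside on the positive side, and -1.0001 and -0.9998 on the negative side. Dim genes were past 2-fold more often. Of 1392 genes with a mean level of -6 or less, 7.61% were higher and 4.31% lower, against 0.167% and 0.268% of 2987 genes with a mean level above 2. Every list count below is to be set against these shares, and lists of unlike level cannot be compared by their counts alone.

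**Figure D1:**
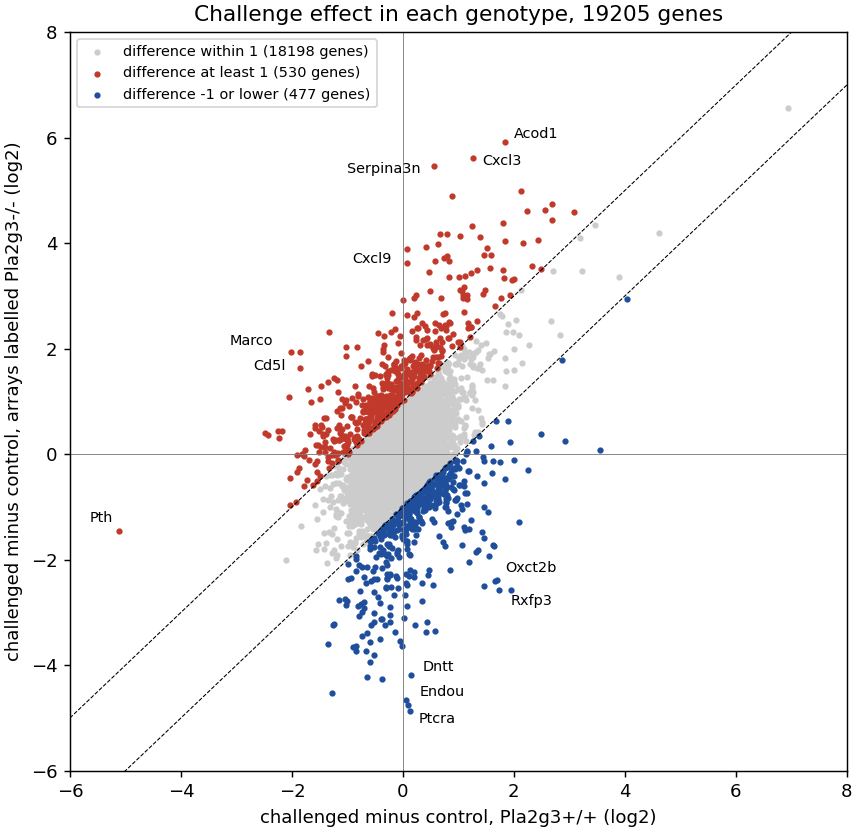
Challenge effect (challenged minus control, log2) on the Pla2g3+/+ arrays (x axis) and on the arrays labelled Pla2g3-/- (y axis), 1 point a gene. Dashed lines mark a genotype by challenge difference of 1 and of -1, with 530 genes above the upper line (red) and 477 below the lower (blue); both axes are parts of the difference, so the plot is a description.

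Challenge itself moved more genes 2-fold under the Pla2g3-/- label. Between the Pla2g3+/+ arrays 205 genes (1.07%) were at least 2-fold higher and 179 (0.932%) at least 2-fold lower after challenge. Between the arrays labelled Pla2g3-/- 564 (2.94%) were higher and 495 (2.58%) lower. Among the 530 genes with a positive difference, 307 were at least 2-fold higher after challenge under the Pla2g3-/- label, and 241 of these moved by less than 2-fold in Pla2g3+/+. Another 81 were at least 2-fold lower after challenge in Pla2g3+/+ and moved by less than 2-fold under the Pla2g3-/- label. In 141 neither challenge effect reached 2-fold. Among the 477 with a negative difference, 277 were at least 2-fold lower after challenge under the Pla2g3-/- label, 247 of them alone, and 35 were at least 2-fold higher in Pla2g3+/+ alone.

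A difference of differences can come from any of its 4 arrays, so the array that stood apart was recorded for each gene. An array stood apart when its level lay at least 1 from the nearest other and the remaining 3 lay within 1 of each other. The array labelled Pla2g3-/- control stood high alone in 179 genes (0.932%) and low alone in 19 (0.0989%). The array labelled Pla2g3-/- challenged stood high alone in 152 (0.791%) and low alone in 24 (0.125%). For the Pla2g3+/+ control array the counts were 24 (0.125%) and 12 (0.0625%), and for the Pla2g3+/+ challenged array 10 (0.0521%) and 17 (0.0885%). Of the 530 positive differences, 131 had the labelled Pla2g3-/- challenged array high alone and 348 had no array apart. Of the 477 negative differences, 143 had the labelled Pla2g3-/- control array high alone and 307 had no array apart. Most differences on either side thus had no array apart, and where 1 array was apart it was more often the challenged array on the positive side and the control array on the negative side, both labelled Pla2g3-/-.

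**Figure D2:**
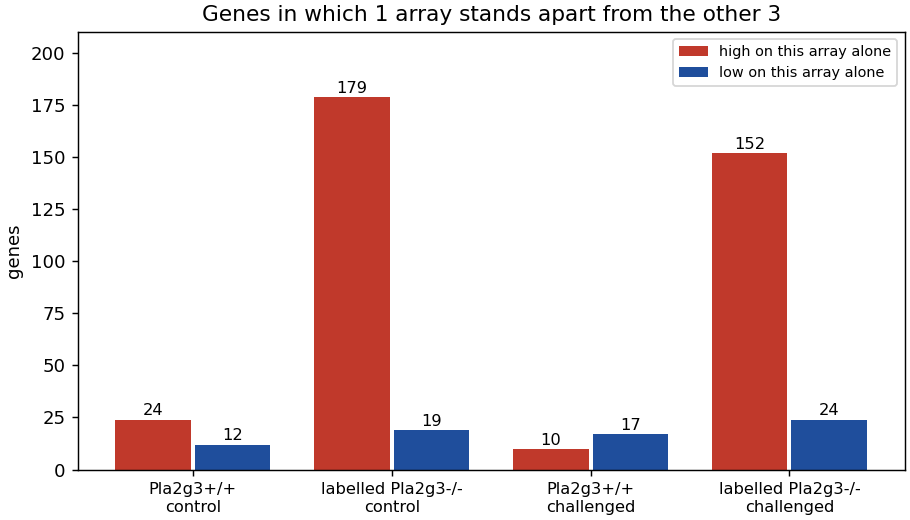
Number of genes (y axis) in which 1 of the 4 arrays (x axis) stands at least 1 log2 unit above (red) or below (blue) the nearest of the other 3, which lie within 1 of each other. The control array labelled Pla2g3-/- stands high in 179 genes and the challenged array with that label in 152, against 24 and 10 on the Pla2g3+/+ arrays.

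Neutrophil-attracting chemokines had some of the largest positive differences. Cxcl3, a CXCR2 ligand, lay at -6.73, -7.15, -5.46 and -1.53. Its level was higher after challenge by 1.27 in Pla2g3+/+ and by 5.62 under the Pla2g3-/- label, a difference of 4.35 ± 0.43 or 20.5-fold. Cxcl1, the ligand closest to human GRO, lay at -6.33, -4.18, -4.88 and -0.41, with a difference of 2.32 ± 0.32. For both genes the labelled Pla2g3-/- challenged array was the highest, and for Cxcl1 the control array with that label was also above the Pla2g3+/+ control.

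The other CXCR2 ligands differed less. Ppbp, a chemokine that platelets store, had 1.13 ± 0.31, and Cxcl15, a lung chemokine, had 0.81 ± 0.29. Cxcl5, made by airway epithelium, was the brightest, at -3.07, -0.94, 3.87 and 5.63. Its challenge effects of 6.94 and 6.56 were nearly the same size, and its difference was -0.37 ± 0.29. Cxcl2 was not well above background on the Pla2g3+/+ control array and has no difference here, and its levels on the other 3 arrays were -6.56, -5.14 and -1.44. Among the 5 measured ligands 3 were 2-fold higher, none was 2-fold lower, and the median was 1.13 against -0.03 over all genes. Both receptors were higher too. Cxcr1 had a difference of 1.93 ± 0.41 and Cxcr2 one of 1.33 ± 0.30, and Cxcr2 lay at -5.59, -4.53, -3.60 and -1.21.

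The start regions of these ligands are shown because the members of this family did not move alike. NF-kB, AP-1 and interferon-regulated factors bind short words in such promoters. RefSeq promoters (GRCm38.p6, 250 bases before the start to 50 after) were found for 4 of the 5 measured ligands and searched on both strands for GGANNTTCC (NF-kB type), TGANTCA (AP-1 type) and GAAANNGAA (interferon type), words that can overlap. In the last 120 bases before each start, printed 5′ to 3′ on the plus strand, capitals mark a match.
Cxcl3 (chr5:90785981-90786100): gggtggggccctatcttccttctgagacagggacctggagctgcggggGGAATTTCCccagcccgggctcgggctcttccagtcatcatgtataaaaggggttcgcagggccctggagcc
Cxcl1 (chr5:90891125-90891244): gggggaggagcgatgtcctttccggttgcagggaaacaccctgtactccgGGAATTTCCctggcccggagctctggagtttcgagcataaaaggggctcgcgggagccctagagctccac
Cxcl15 (chr5:90794414-90794533): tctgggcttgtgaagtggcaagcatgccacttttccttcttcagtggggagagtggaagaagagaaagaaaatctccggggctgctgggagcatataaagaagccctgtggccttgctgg
Ppbp (chr5:90768398-90768517): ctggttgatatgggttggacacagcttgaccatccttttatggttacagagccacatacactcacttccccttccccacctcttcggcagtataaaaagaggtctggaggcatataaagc

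The NF-kB type word lay 72 bases before the start of Cxcl3 and 70 bases before that of Cxcl1, the pair with the largest differences in this family. The windows of Cxcl15 and Ppbp did not hold these letters. Ppbp had 1 AP-1 type word further out, 204 bases before its start, and no interferon type word was found in the 4 promoters. The promoter of Cxcl2, which has no difference here, held the NF-kB type word 96 bases before its start. No promoter was found for Cxcl5, the ligand with the negative difference. Over the promoters of 27025 genes the NF-kB type word was in 4.86%, the AP-1 type word in 8.97% and the interferon type word in 9.76%. The NF-kB type word was in 5.43% of the promoters of genes at least 2-fold higher and in 5.32% of those of all member genes. For the AP-1 type word these shares were 12.4% and 7.26%, and for the interferon type word 16.5% and 8.93%. The shares were not tested. A match is a description of letters and not a measured site.

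Chemokines for T cells, monocytes and eosinophils followed the same direction. Cxcl9, which interferon gamma induces, lay at -4.66, -5.45, -4.59 and -1.82, so the labelled Pla2g3-/- challenged array stood high alone. Its difference was 3.55 ± 0.30, or 11.7-fold. Cxcl10, another CXCR3 ligand, had 2.58 ± 0.29 and was also higher after challenge in Pla2g3+/+, by 1.80. The probe for Cxcl11, the remaining CXCR3 ligand, was bright and flat, at 6.66, 6.64, 6.68 and 6.49.

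Of 7 monocyte-attracting CC chemokines, 4 had a 2-fold positive difference and 0 a negative one, with a median of 1.53 and a lowest value of 0.90. Ccl7, a ligand of CCR2 and CCR3, lay at -5.64, -5.50, -3.51 and -0.51 and differed by 2.85 ± 0.32. Ccl2, the main CCR2 ligand, differed by 2.21 ± 0.09, and its error is small because its probe is printed 10 times. Ccl3 and Ccl4, made by activated macrophages, differed by 1.63 ± 0.29 and 1.53 ± 0.29. Each of these 4 was at least 2-fold higher after challenge in Pla2g3+/+ as well.

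Type 2 chemokines, which draw eosinophils and type 2 T cells, were past 2-fold in 4 of 4 measured members. Ccl24 (eotaxin 2) lay at -4.01, -5.16, -5.37 and -3.80, so its challenge effect was -1.35 in Pla2g3+/+ and 1.37 under the Pla2g3-/- label. Ccl17, a CCR4 ligand, lay at -3.51, -2.37, -0.82 and 2.08 and was higher after challenge under both labels, with a difference of 1.75 ± 0.29. Ccl8 and Ccl11 (eotaxin 1) differed by 1.35 ± 0.30 and 1.21 ± 0.29. For Ccl8 the Pla2g3+/+ challenged array stood low alone, so the same sign came from a different array in this gene. The median of the 4 was 1.55. Not all chemokines followed. Of 12 others 2 were past 2-fold, Ccl6 at 2.52 and the B cell attractant Cxcl13 at 2.16, and the median of the 12 was -0.06.

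Among cytokines, Il17a had the largest difference. This cytokine of T cells and innate lymphocytes lay at -6.50, -6.49, -5.62 and -1.59, with a difference of 4.02 ± 0.35. It was 1 of 10 measured genes of the IL-17 and IL-22 axis past 2-fold, and the median of that list was 0.05. Il1b, the main secreted IL-1, lay at -3.23, -2.23, -1.0 and 2.38 and differed by 2.38 ± 0.09. Il1rn, which encodes its natural antagonist, differed by 1.87 ± 0.37, and 2 of 11 IL-1 family genes were past 2-fold (median 0.27). Oncostatin M, an IL-6 family cytokine, differed by 2.59 ± 0.32 (Osm) and its receptor chain by 1.17 ± 0.29 (Osmr), each with the labelled Pla2g3-/- challenged array high alone. Il4 was dim, at -5.87, -6.16, -5.33 and -4.14, and differed by 1.48 ± 0.11. Its receptor Il4ra differed by 1.19 ± 0.29 by its brighter probe and by 0.18 by its other probe.

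Inflammatory signalling genes had positive differences of smaller size. All 15 AP-1 and Egr genes, immediate early transcription factors, had a positive difference, with a median of 0.81, and 6 were past 2-fold. Fosl1 had the largest, 2.34 ± 0.34, followed by Fosb at 1.89 ± 0.29 and Egr2 at 1.75 ± 0.29. Fos lay at 1.51, 0.98, 1.14 and 2.07, so it was lower after challenge in Pla2g3+/+ by 0.37 and higher under the Pla2g3-/- label by 1.09. Of 18 genes on a list of NF-kB subunits, targets and feedback inhibitors 3 were past 2-fold, all higher (median 0.56). The largest was Socs3 at 2.03 ± 0.29, a brake on cytokine signalling and not an NF-kB subunit or inhibitor. Traf1 at 1.09 ± 0.29 and Nfkbid at 1.03 ± 0.29 were just past 2-fold. Interferon-stimulated genes did not share these positive differences. Among 31 of them 1 was past 2-fold, Gbp2 at 1.23 ± 0.29, and the median was 0.12. Of 19 unfolded protein response genes 1 was past 2-fold, Atf3 at 1.64 ± 0.29, and that gene is on the AP-1 list too.

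Serpina3n had the largest positive difference of the named genes. It encodes a secreted inhibitor of serine proteases and lay at -2.06, -4.73, -1.50 and 0.74. Its challenge effect was 0.56 in Pla2g3+/+ and 5.47 under the Pla2g3-/- label, a difference of 4.91 ± 0.29 or 30.1-fold, to which the low control array contributed. Neighbouring members of the same cluster on chromosome 12 differed by 3.50 ± 0.29 (Serpina3g) and 3.39 ± 0.35 (Serpina3f). Serpina3m had the opposite sign at -2.15 ± 0.34. Its probe belongs to a group with shared letters described below. These genes are close copies of each other, so how far their probes separate them is uncertain. Of 17 acute phase and antimicrobial genes 6 were higher and 1 lower, with Saa3, a serum amyloid, at 2.06 ± 0.29 and a list median of 0.29.

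**Figure D3:**
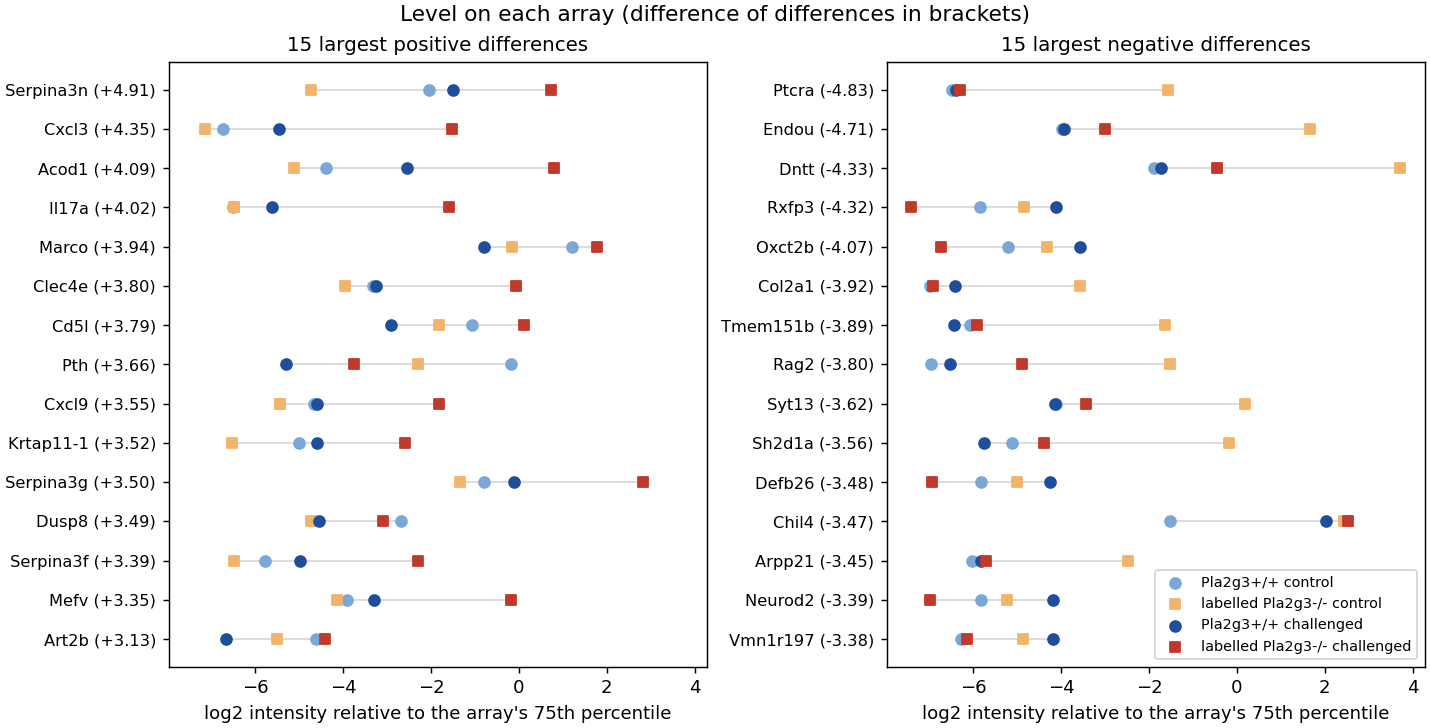
Level on each of the 4 arrays (x axis, log2 intensity relative to the array's 75th percentile) of the 15 genes with the largest positive (left) and the 15 with the largest negative difference (right), with the difference in brackets. On the left the labelled Pla2g3-/- challenged array (red squares) is the highest in 13 of 15 genes; on the right the labelled Pla2g3-/- control array (orange squares) is the highest in 9 of 15 genes.

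Genes for itaconate, arginine and nitric oxide metabolism were past 2-fold in 3 of 7 members, with a median of 0.25. Acod1, which makes the antibacterial metabolite itaconate, lay at -4.39, -5.13, -2.56 and 0.79, a difference of 4.09 ± 0.09 or 17.0-fold. Arg2 and Arg1, the arginases, differed by 1.97 ± 0.41 and 1.77 ± 0.29. Clec4e (Mincle), a receptor for fungal and mycobacterial glycolipids, lay at -3.33, -3.95, -3.25 and -0.07 and differed by 3.80 ± 0.29. It was 1 of 4 myeloid lectin genes past 2-fold among 8, with Clec4d at 2.74 ± 0.29, Clec7a (Dectin-1) at 1.78 ± 0.29 and Clec4n at 1.64 ± 0.29. The median of the 8 was 1.31. Mefv, which encodes the inflammasome sensor pyrin, lay at -3.92, -4.15, -3.29 and -0.17. It differed by 3.35 ± 0.29 by its brighter probe and by 1.76 by its other probe. Of 18 inflammasome and Toll-like receptor genes 5 were past 2-fold, while the list median was 0.06.

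Neutrophil markers were higher in 7 of 17 members and lower in 0, with a median of 0.89. The formyl peptide receptor genes Fpr1 and Fpr2 led with 3.08 ± 0.30 and 2.98 ± 0.30, followed by the collagenase Mmp8 at 2.20 ± 0.32. The calprotectin subunit S100a8 lay at 0.21, 1.16, 1.88 and 3.97 and differed by 1.14 ± 0.29. Of the 17 genes 5 were below 0. They were Ngp, a granule protein of immature neutrophils, at -0.94 ± 0.30, Mpo at -0.50, Ltf at -0.14, Elane at -0.05 and Csf3r at -0.02. The list's median level was -2.66, -2.30, -2.32 and -1.18, so the markers of neutrophils were highest on the array that was also highest in CXCR2 ligands. Their part in the other differences was not tested.

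Macrophage markers were mostly positive and of very unequal size, with 12 of 14 above 0. Marco, a scavenger receptor of resident lung macrophages, lay at 1.22, -0.15, -0.79 and 1.78, so after challenge it was lower by 2.01 in Pla2g3+/+ and higher by 1.94 under the Pla2g3-/- label. The difference was 3.94 ± 0.29. Cd5l, a secreted macrophage protein outside the list, had the same shape at -1.07, -1.83, -2.92 and 0.12, a difference of 3.79 with the same opposed signs. Msr1, another scavenger receptor, differed by 2.51 ± 0.39, and Mrc1 by 1.61 ± 0.29. The pan-macrophage genes Csf1r, Cd68 and C1qa differed by 0.56, 0.40 and 0.44. Chil3, a chitinase-like protein, had -2.09 ± 0.29, and 3 of 14 genes were past 2-fold higher with 1 lower. The median was 0.49, and the list's median levels were -0.74, -0.71, -1.10 and -0.07.

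Dendritic cell markers were past 2-fold in 4 of 10 genes (median 0.97), led by Ccr7 at 1.50 ± 0.29 and Cd83 at 1.47 ± 0.29. Ccr7 lay at -0.56, -1.55, -1.80 and -1.29, so it was highest on the Pla2g3+/+ control array. Its challenge effect was -1.24 in Pla2g3+/+ and 0.26 under the Pla2g3-/- label. MHC class II genes were past 2-fold in 3 of 10 (median 0.71). Those 3, H2-Ob, H2-DMb2 and H2-Oa, are also expressed by B cells, and their levels were highest on the Pla2g3+/+ control array. H2-Ob lay at -1.31, -2.0, -2.78 and -1.87. The abundant class II chain H2-Ab1 lay at 4.68, 4.25, 4.39 and 4.57 and differed by 0.62 ± 0.29.

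Among genes of lipid mediators, Ptgs2, the inducible cyclooxygenase, lay at -2.22, -3.37, -2.02 and -0.40, a difference of 2.76 ± 0.10, while the constitutive Ptgs1 had 0.00. It was the 1 gene past 2-fold among 11 prostanoid enzymes (median 0.30). None of 11 lipoxygenase and leukotriene enzymes passed 2-fold (median 0.34). Of 9 secreted phospholipases A2 1 did, the dim Pla2g5 at 1.38 ± 0.40, and Pla2g3 itself was second at 0.71. The other secreted members lay between -0.45 and 0.61. Among 9 phospholipases A2 listed separately, Pla2g7 had 1.14 ± 0.29 and Pla2g4c, an intracellular enzyme, had -1.08 ± 0.36. Pla2g4c turned to a positive 0.60 with another background correction. Enpp2 (autotaxin), which makes lysophosphatidic acid, lay at -1.34, -1.89, -2.39 and -0.93 and differed by 2.01 ± 0.29. The receptor gene for platelet-activating factor, Ptafr, differed by 1.64 ± 0.31.

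Receptors for prostanoids went both ways. Ptgir and Ptger2, receptors for prostacyclin and prostaglandin E2, differed by 1.63 ± 0.36 and 1.56 ± 0.38, and Tbxa2r, the thromboxane receptor, by -2.25 ± 0.30. Tbxa2r lay at -4.79, -2.19, -5.24 and -4.90, so the control array labelled Pla2g3-/- stood high alone, as in 6 of 13 thymocyte genes below. Of 10 EGF family genes and receptors 2 were higher and 1 lower, with a median of 0.04. Areg (amphiregulin) lay at -2.64, -4.99, -2.84 and -2.30, and its difference of 2.88 ± 0.29 rested on a low control array. Hbegf differed by 1.94 ± 0.29 with the labelled Pla2g3-/- challenged array high alone. Plaur, the urokinase receptor, had 2.30 ± 0.29, and 5 of 15 metalloproteinase and related genes were past 2-fold (median 0.81).

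Some positive differences came with a control array apart. B cell markers were past 2-fold in 12 of 19 genes, with a median of 1.31. In 10 of these 12 the Pla2g3+/+ control array stood high alone. Tnfrsf13c, the receptor for the survival factor BAFF, lay at -1.78, -4.11, -4.01 and -3.81 and differed by 2.53 ± 0.29. The challenge effect of the list had a median of -1.31 in Pla2g3+/+ and 0.14 under the Pla2g3-/- label. The sign of these differences thus came with a lower level after challenge in Pla2g3+/+ and not with a higher one under the other label. Hspa1a, a heat shock protein, had the same array high, at 1.32, -0.53, -0.86 and -0.09.

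Endothelial markers had positive differences, some with the other control array low. Of 13 genes 4 were past 2-fold (median 0.66), and in 5 the control array labelled Pla2g3-/- stood low alone. Vwf, which encodes von Willebrand factor, lay at 0.33, -0.83, 0.41 and 0.79 and differed by 1.54 ± 0.29. Mmrn2 lay at -1.47, -3.62, -1.57 and -2.09. Genes of the thyroid and parathyroid, glands that lie beside the trachea, were also present and unequal. Pth, parathyroid hormone, lay at -0.18, -2.30, -5.30 and -3.75 and had a difference of 3.66 ± 0.30 although it was lower on both challenged arrays. Tg, thyroglobulin, lay at 1.07, 0.75, -0.96 and 0.29 and differed by 1.58 ± 0.29. What part such tissue had in other values was not tested.

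Genes of developing T cells had 3 of the largest negative differences among named genes, Ptcra, Endou and Dntt. Ptcra, the surrogate chain of the pre-T cell receptor, lay at -6.48, -1.56, -6.39 and -6.30, a difference of -4.83 ± 0.39 or 28.5-fold. Outside the labelled Pla2g3-/- control array its intensities were 22.4, 21.6 and 25.1 units, so this fold rests on dim values. Dntt, which adds bases when receptor genes are joined, lay at -1.88, 3.72, -1.72 and -0.46 and differed by -4.33 ± 0.29. Rag2, part of the enzyme that cuts receptor genes, differed by -3.80 ± 0.38, and Endou, an endoribonuclease on the thymocyte list, by -4.71 ± 0.29. In each of these 4 genes the control array labelled Pla2g3-/- was at least 3 log2 units above the other 3 arrays, and the Pla2g3+/+ arrays differed by less than 0.5 from each other.

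Of 13 thymocyte markers 12 had a difference of -1 or lower and 0 had one of at least 1, with a median of -3.35 against -0.03 over all genes. Their median levels were -4.37, -0.89, -4.96 and -2.99. The thirteenth, Cd1d1, had -0.71. Of 23 T cell markers 18 were lower and 0 higher (median -2.11, median levels -2.30, 0.84, -3.19 and -2.46). Lck, the kinase that starts T cell receptor signalling, lay at 0.06, 3.72, -0.51 and 0.48 and differed by -2.66 ± 0.29. Il7r, which mature T cells carry, was the 1 positive member at 0.75 ± 0.29, and Cd4 had -0.45. The B cell and T cell lists thus had opposite signs and different control arrays at the top. Gzma, a granzyme of cytotoxic cells, and Gata3, a T cell transcription factor, had the same array high alone, with differences of -1.52 and -2.25.

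Cell cycle genes had smaller negative values, and the control array labelled Pla2g3-/- stood high alone in 2 of 22. Of 22 members 6 were past 2-fold lower and 0 higher, and 21 of 22 had a negative sign (median -0.69). The 6 were Mcm2, Mcm3, Mcm5, Mcm6 and Mcm7, subunits of the helicase that opens DNA for replication, and Rrm2, which makes deoxynucleotides and whose probe also holds the run of repeat letters described below. Mcm5 lay at 0.05, 1.00, 0.95 and 0.34, so both the labelled Pla2g3-/- control and the Pla2g3+/+ challenged arrays were high. Challenge moved it by 0.90 in Pla2g3+/+ and by -0.66 under the Pla2g3-/- label.

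Other negative differences also came with the control array labelled Pla2g3-/- high. Col2a1, the collagen of cartilage, lay at -6.97, -3.57, -6.40 and -6.91, and Syt13, a synaptotagmin, and Tmem151b, a membrane protein, at -4.13, 0.19, -4.14 and -3.44 and at -6.06, -1.64, -6.44 and -5.90. Sh2d1a, a T cell signalling adaptor, and Arpp21, both on the thymocyte list, were also highest on the control array labelled Pla2g3-/-. Chil4, an acidic chitinase-like protein of the type 2 response, had a different shape. It lay at -1.53, 2.45, 2.03 and 2.54, so the Pla2g3+/+ control array stood low alone, and its difference of -3.47 ± 0.29 came with a level that was already high in the labelled Pla2g3-/- control. Chil3 and the goblet cell protein Clca1 had that array low as well, with Clca1 at 4.83, 6.26, 6.73 and 6.88 (difference -1.27). The remaining type 2 epithelial genes were mostly near 0. The mucin Muc5ac had 0.29, the resistin-like Retnla -0.16 and Slc26a4 (pendrin) -0.43, and 3 of 20 genes were higher with 3 lower (median 0.23).

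A last group of negative differences had in common the letters of the probe. Rxfp3, Oxct2b, Neurod2 and Vmn1r197 are genes of nerve, testis or vomeronasal tissue, and all 4 had a dim signal that was highest on the Pla2g3+/+ challenged array and lower on the challenged array labelled Pla2g3-/-. Rxfp3 lay at -5.85, -4.83, -4.11 and -7.42, a difference of -4.32 ± 0.42. Their probes held a piece of the telomere repeat CCCTAA, the short unit repeated at chromosome ends. The pattern was noticed in the values and then described over all probes, so it has no test. To show the shared letters, 30 bases of each of 8 such probes are printed 5′ to 3′ with mm9 coordinates, and capitals mark the longest run of the repeat.
Rxfp3 (chr15:10963507-10963536, minus strand): caggaaaagaAACCCTAACtaggacatgct
Neurod2 (chr11:98187973-98188002, minus strand): ttcACCCTAACacgaatctccgcgtttttt
Vmn1r197 (chr13:22420581-22420610, plus strand): gttccggagttCCTAACCCTtggttatgca
Dnajb8 (chr6:88173154-88173183, plus strand): acaagtgacagccaCCTAACCCatccctgg
Wfdc6a (chr2:164405818-164405847, minus strand): caagggAACCCTAACaacttcccatctgaa
Trim43b (chr9:88979685-88979714, minus strand): gtaaAACCCTAACtaagacatgttaaaatg
Tfpi (chr2:84281052-84281081, minus strand): tggTAACCCTAACtcactttaggtttatag
Slc26a1 (chr5:109099573-109099602, minus strand): gacacagtagACCCTAACCCcattcagtac

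The differences of these 8 probes ran from -4.32 (Rxfp3) over -2.63 (Wfdc6a) and -1.97 (Tfpi) to -1.80 (Slc26a1). All words of 7 letters held by at least 30 member probes were then ranked by the mean difference of those probes. Of 12404 such words the 6 rotations of the repeat took the 6 lowest places, with means of -0.76 to -0.35. The medians for the same words were -0.32 to -0.09, so a minority of probes set the means. A long run holds several rotations, so the 6 words share probes and their places are not independent. The reverse complements of the 6 rotations, as the other strand reads, had means of -0.03 to 0.10. The share of probes with a difference of -1 or lower went up with the length of the run. It was 2.37% of 28692 probes with 5 or fewer letters, 6.05% of 248 with 7, 21.2% of 52 with 8, 47.8% of 23 with 9 and 66.7% of 9 with 10 or more. The Pla2g3+/+ challenged array was the highest and the labelled Pla2g3-/- challenged array the lowest in 8 of those 9 probes, against 7.8% of all member probes.

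Other probes of the same genes allowed a comparison within the gene. Of 112 genes with member probes both with and without a run of at least 7, 9 had a run probe that was 2-fold lower, and these 9 were picked for that value. For Tfpi, an inhibitor of coagulation that endothelium secretes, the probe with the run gave -1.97 and the other probes lay between -0.17 and 0.14. For Rxfp3 the other probe gave -0.07, at -5.59, -5.83, -5.34 and -5.64. In Kctd11 the values were -1.59 with the run and 0.06 without. Its probe with the run was dim, at -4.57, -4.29, -3.49 and -4.79, and the one without was bright, at 1.73, 1.64, 1.89 and 1.86. In Tfpi the probe with the run was also the dimmer, so letters and level were not separated in these 2 genes. Serpina3m and the EGF family member Epgn (-2.0), listed above among their families, were read by probes with runs of 7 and 8. Of the 477 genes with a negative difference 447 remained when the 332 member probes with a run of 7 or more were left out, and of the 530 with a positive one 526 remained.

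**Figure D4:**
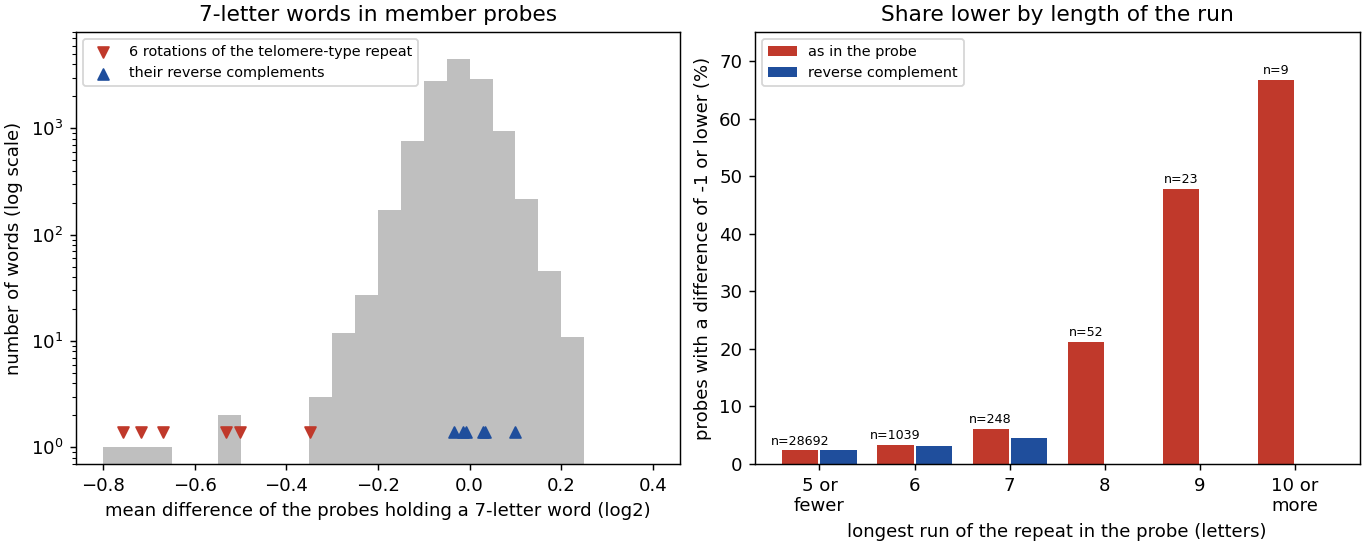
Left, number of 7-letter words (y axis, log scale) by the mean genotype by challenge difference of the probes that hold them (x axis), with the 6 rotations of the telomere repeat (red) at -0.76 to -0.35 and their reverse complements (blue) at -0.03 to 0.10. Right, percent of probes with a difference of -1 or lower by the longest run of the repeat, which goes from 2.37% to 66.7% for the letters as in the probe (red).

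**Figure D5:**
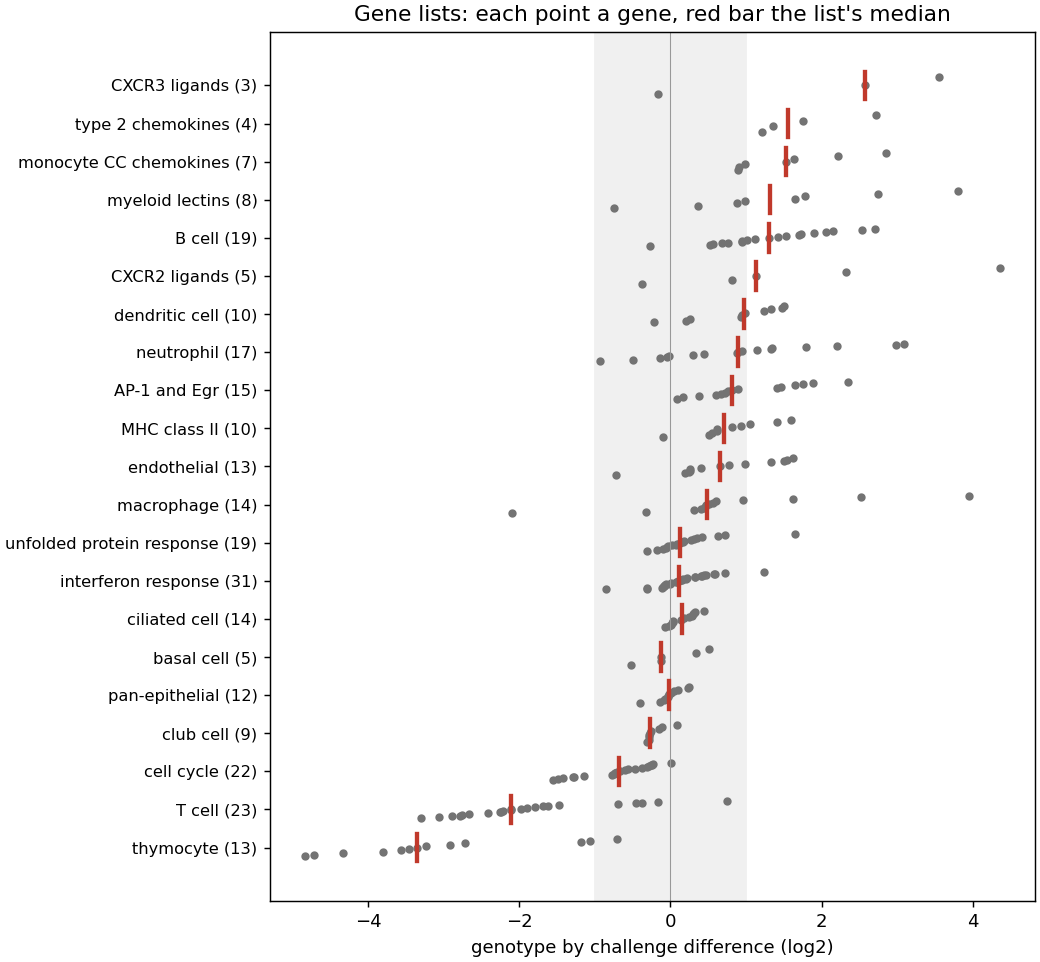
Genotype by challenge difference (x axis, log2) of each member gene (grey points) of 21 gene lists (y axis, number of members in brackets) with the list median (red bar); the grey band marks less than 2-fold. Epithelial lists lie within the band, thymocyte and T cell lists to its left (medians -3.35 and -2.11), and chemokine, lectin and B cell lists to its right.

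Side by side, the lists fall into 3 kinds. Epithelial identity genes had differences inside 2-fold in every member of the pan-epithelial, club, basal and ciliated lists. Nearly all genes with a mean level above 2 were inside 2-fold as well. The 4 chemokine lists named by receptor or cell above, myeloid lectins, neutrophil and AP-1 genes had positive medians of 0.81 to 2.58, and in them the labelled Pla2g3-/- challenged array was mostly the highest. B cell, endothelial, thymocyte and T cell genes had medians of 1.31, 0.66, -3.35 and -2.11, and a control array stood apart in 10 of 19, 5 of 13, 6 of 13 and 8 of 23 of them. Surfactant and alveolar type 2 genes stayed near 0 (median -0.13), with Napsa at 1.96 ± 0.29 as the 1 of 10 past 2-fold. Mast cell, eosinophil and basophil markers had 0 of 9 past 2-fold and a median of -0.16.

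Genes that failed the detection rule have no difference here, and they include well-known mediators of this model. Il13 and Il5, the type 2 cytokines for mucus and eosinophils, were above background on the challenged arrays but not on the controls. Il13 lay at -5.50 on the Pla2g3+/+ challenged array and at -3.04 on the one labelled Pla2g3-/-, and Il5 at -4.92 and -2.53. The same was true of Csf3 and Il1f9 (IL-36 gamma), at -7.51 and -4.77 and at -6.59 and -3.26. Il6 was not above background on the control array labelled Pla2g3-/- and lay at -6.42, -5.88 and -2.88 on the other 3. For each of these genes the challenged array labelled Pla2g3-/- was the brightest.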

How the data were processed

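Total RNA (200 ng per array) from bronchial epithelial cells was labelled with Cy3 and hybridised to 4 single-colour Agilent arrays on 1 slide. Deposited intensity values are the processed signals of Agilent Feature Extraction 11.5.1.1 (per the submitters' processing notes), in arbitrary units with background already subtracted (per the file headers), and probe coordinates are mm9. Spots flagged as outliers and control spots were left out here, spots of 1 probe were averaged, and log2 intensity was taken relative to the 75th percentile of each array, which lay between 1812 and 1992 units. Between 78.7% and 81.5% of probes were above background per array, and 0 spots were saturated. The number of arrays, 1 a group, limits the precision.

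A probe was kept when it was well above background on all 4 arrays, and a gene was read from its brightest kept probe. Of 39429 probes 28324 were named through RefSeq accessions (GRCm38.p6) and the other 11105 kept the array's own name. Of 151 genes with several kept probes and a 2-fold difference, 136 (90.1%) had the same sign in all probes. The deposited series table holds the same intensity values on another scale, and each column's median there lay between 0.0850 and 0.0879.

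No test was possible with 0 residual degrees of freedom, so counts past 2-fold are given. The share of all genes past it, 2.76% higher and 2.48% lower, is the background for each list count. Named genes were Pla2g3, the 15 largest differences in each direction (clone and prediction names, dim genes and genes with disagreeing probes left out) and up to 4 members of each list. The gene lists and members were chosen with earlier results of these data known, and the other list members named, the comparison of probe letters and its examples were chosen after their values were seen. Code was tested on simulated data. Alternatives were background correction with normexp (limma 3.58.1 in R 4.3.3, offset 50), quantile normalization, median centring, the mean over probes, other filters, outlier spots kept, the deposited table and a 4-fold threshold. Calculations used Python 3.11.15 with numpy 2.4.6 and pandas 2.3.3, and plots matplotlib 3.10.9. Some genes are not reported here.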

Additional observations from a re-analysis of the deposited data

Results flagged for a closer look

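In 38 genes the challenge effect was at least 2-fold in each genotype and opposite in sign, 16 of them higher after challenge under the Pla2g3-/- label and 22 lower. With 1 array a group the difference was not tested in any of them. Among the genes named here 10 did so. Marco (difference 3.94) was lower after challenge by 2.01 in Pla2g3+/+ and higher by 1.94 under the Pla2g3-/- label. Cd5l (3.79), the phosphatase gene Dusp8 (3.49), Art2b (3.13) and Ccl24 (2.72) had the same signs. Rxfp3 (-4.32), Oxct2b (-4.07), the beta-defensin Defb26 (-3.48), Neurod2 (-3.39) and Vmn1r197 (-3.38) had the opposite signs, and all of these but Defb26 were read by probes with a run of the telomere repeat.

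Genes outside the 19205 also carried signal. A total of 200 genes were well above background on the challenged array labelled Pla2g3-/- alone, against 162 on the Pla2g3+/+ control, 125 on the control labelled Pla2g3-/- and 231 on the Pla2g3+/+ challenged array. In the other direction, 402 genes were missing on the challenged array labelled Pla2g3-/- alone, against 86, 83 and 54 on the other 3 arrays in the same order. Among the 200 were the chemokine Ccl22, the cytokines Il1a, Il9 and Tslp, the serum amyloid Saa2, Clec5a, Clec12a and Slfn5. These differences between arrays were not tested.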

How the results depend on the processing

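No paired analysis was possible because each group has 1 array, and without any 1 array the difference cannot be computed. The 530 higher and 477 lower genes were 233 and 250 with normexp, 352 and 336 without dim genes, 1276 and 1228 without the detection filter, and 99 and 110 at 4-fold. Of the 233 and 250 with normexp, 228 and 249 were among the original genes, so the 2-fold counts depend on background correction. Median centring gave 573 and 446, or 56.2% higher against 52.6%. Counts of genes with 1 array apart moved too. The Pla2g3+/+ control array stood high alone in 12 and low alone in 6 with normexp, in 99 and 41 without the detection filter, and low in 7 without dim genes. The control array labelled Pla2g3-/- stood low alone in 8 with normexp and 60 without the detection filter. The Pla2g3+/+ challenged array stood high alone in 0, 3 and 106 and low alone in 3, 8 and 53 with normexp, without dim genes and without the detection filter. The challenged array labelled Pla2g3-/- stood high alone in 95 and low in 4 with normexp, and in 396 and 157 without the detection filter. List medians moved by more than 0.29 with normexp for CXCR2 ligands (0.73), CXCR2 receptors (1.11), type 2 chemokines (1.20), thymocytes (-2.85), B cells (0.88), endothelium (0.22), adipocytes (0.27) and thyroid and parathyroid (0.55). Without dim genes they moved for myeloid lectins (1.64), leukotriene and formyl peptide receptors (0.85), endothelium (0.33) and thyroid and parathyroid (1.58). Without the detection filter they moved for CXCR2 ligands (1.72), IL-1 genes (0.82), myeloid lectins (1.64), type 2 cytokines and receptors (0.91) and thyroid and parathyroid (0.49). The muscle list gave -0.060 with the mean over probes. Of 695 single genes 128 moved by more than their scanner error with normexp, 33 with the mean over probes and 5 with quantile normalization, and 1 with a 2-fold difference changed sign, Pla2g4c with normexp (0.60). Except where a filter changes which genes enter, the cause was not tested.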
